A study of Mus musculus with 28 samples.

Results

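Markers of arterial and of sinusoidal or venous endothelium made up 10 genes of the 25251 in the deposited expression table, picked by symbol. Of these, 5 mark arteries (Efnb2, Gja4, Gja5, Bmx and Ly6a) and 5 mark sinusoids or veins (Stab1, Stab2, Lyve1, Ephb4 and Nr2f2). Their RNA was compared between Flt3+/+ and Flt3 ITD/ITD endothelial cells (ECs), and between ECs and 2 other populations from bone and marrow. Calls required an adjusted p under 0.1 together with mean RPKM values (reads scaled to transcript length in kilobases and to library size) that differed by 1 log2 unit or more. Between genotypes in ECs 0 members were called, as were 0.0081% of all genes. In ECs 8 of 10 were called higher than in stromal cells (16.3% of all genes were), and 8 of 10, not all the same ones, higher than in mononuclear cells (23.1% of all genes were).

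Bone marrow is supplied by arterioles and drained by wide, leaky sinusoids, and the endothelium of each carries its own set of genes. Arterial identity is set up by VEGF and Notch signaling and shows as ephrin-B2 on the cell surface, together with the connexins that couple arterial cells. Venous identity depends on the nuclear receptor COUP-TFII, which holds Notch signaling down, and shows as the ephrin-B2 receptor EphB4, whereas sinusoidal cells carry large scavenger receptors that take up circulating waste. Both kinds of vessel are parts of the niche of hematopoietic stem cells.

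The mice were C57 BL6 animals aged 8 to 10 wk, either Flt3+/+ or homozygous for a knocked-in Flt3 allele with an internal tandem duplication (Flt3 ITD/ITD), which keeps the receptor active and causes a myeloproliferative disease. ECs (CD45-Ter119-CD31+) and mesenchymal stromal cells (MSCs, CD45-Ter119-CD31-CD166-Sca1+) were sorted from cells that line the bone, with 5 libraries of 100 cells per genotype, and bone marrow mononuclear cells (MNCs) gave 4 libraries of 200 cells per genotype. Each library came from 1 mouse. The EC gate rests on CD31 and has no marker that separates arteries from sinusoids, so an EC library is a mixture, and in such a mixture fewer cells of a type and less RNA per cell cannot be told apart.

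Library totals ranged from 6377013 to 33880743 estimated read counts in ECs, from 10674182 to 33714502 in MSCs and from 14260910 to 22149240 in MNCs. A count of 3 was taken as the floor, and this covers counting error only. The EC label held by its markers: over 15 pan-endothelial genes the summed RPKM was 2553 to 3836 in EC libraries, 13.9 to 58.0 in MSC libraries and 18.4 to 50.6 in MNC libraries. Genes listed as markers of other cells were also present in the EC libraries. The EC library Flt3 ITD/ITD replicate 2 held 778 counts of Ptprc, which encodes CD45, against 0 to 3 in the other 9, and the summed RPKM of 10 leukocyte genes was 606 there and 15.8 to 242 elsewhere. Summed RPKM over the EC libraries ran from 153 to 1183 for 8 mural genes, from 183 to 495 for 10 mesenchymal genes, from 2.30 to 47.7 for 10 macrophage genes, from 0.88 to 53.4 for 5 megakaryocyte genes and from 0 to 97.9 for 4 erythroid genes. The mural genes summed to 18.3 to 172 RPKM in MSC libraries and to 4.55 to 23.4 in MNC libraries. Those highest in ECs were Rgs5 and Tagln, at means of 325 and 174 RPKM. Against MSCs, 3 of the 7 mural genes tested were called higher in ECs (16.3% of all genes were) and 1 lower. The highest mesenchymal genes in ECs were Cxcl12 and Lepr, at means of 175 and 46.8 RPKM. In MSCs they were at 391 and 52.7, and neither was called between ECs and MSCs. All 10 mesenchymal genes were lower in ECs than in MSCs, with a median log2 difference of -8.67. Of them 8 were called lower, where 2800 of all 16897 genes tested were. The mesenchymal genes summed to 26462.9 to 30848.5 RPKM in MSC libraries. The part of all these other-cell genes in the EC results was not tested. Flt3 itself was at 0 or 1 count in the Flt3+/+ ECs and at 0, 0, 148, 1 and 63 counts in the Flt3 ITD/ITD ECs, and the counts do not tell the 2 alleles apart.

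The members covered a wide range of levels in ECs. By mean RPKM over the 10 EC libraries the order was Ly6a, Efnb2, Nr2f2, Gja4, Ephb4, Stab1, Stab2, Lyve1, Bmx and Gja5, falling from 4759 ± 884 down to 2.07 ± 2.86 (SD, n = 10). Ly6a stood 6.17 ± 0.38 log2 units above Efnb2 within a library (log2(RPKM + 1), n = 10), and Stab1 stood 1.49 ± 1.30 above Stab2. Each of the other neighbors in this order differed by less than the SD of that difference. RPKM divides by the length of the transcripts to which the authors' program assigned the reads, and the length implied by the deposited values was steady for Efnb2 (4.38 to 4.39 kb) but shifted between libraries for Stab1 (3.05 to 4.01 kb) and Stab2 (5.21 to 7.84 kb). The longest coding transcript of Stab1 in the GENCODE vM21 annotation is 7.999 kb, and with the longest coding transcript as the length for every gene its mean fell to 9.87 ± 2.74, while the order changed only in that Bmx passed Lyve1.

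**Figure D1:**
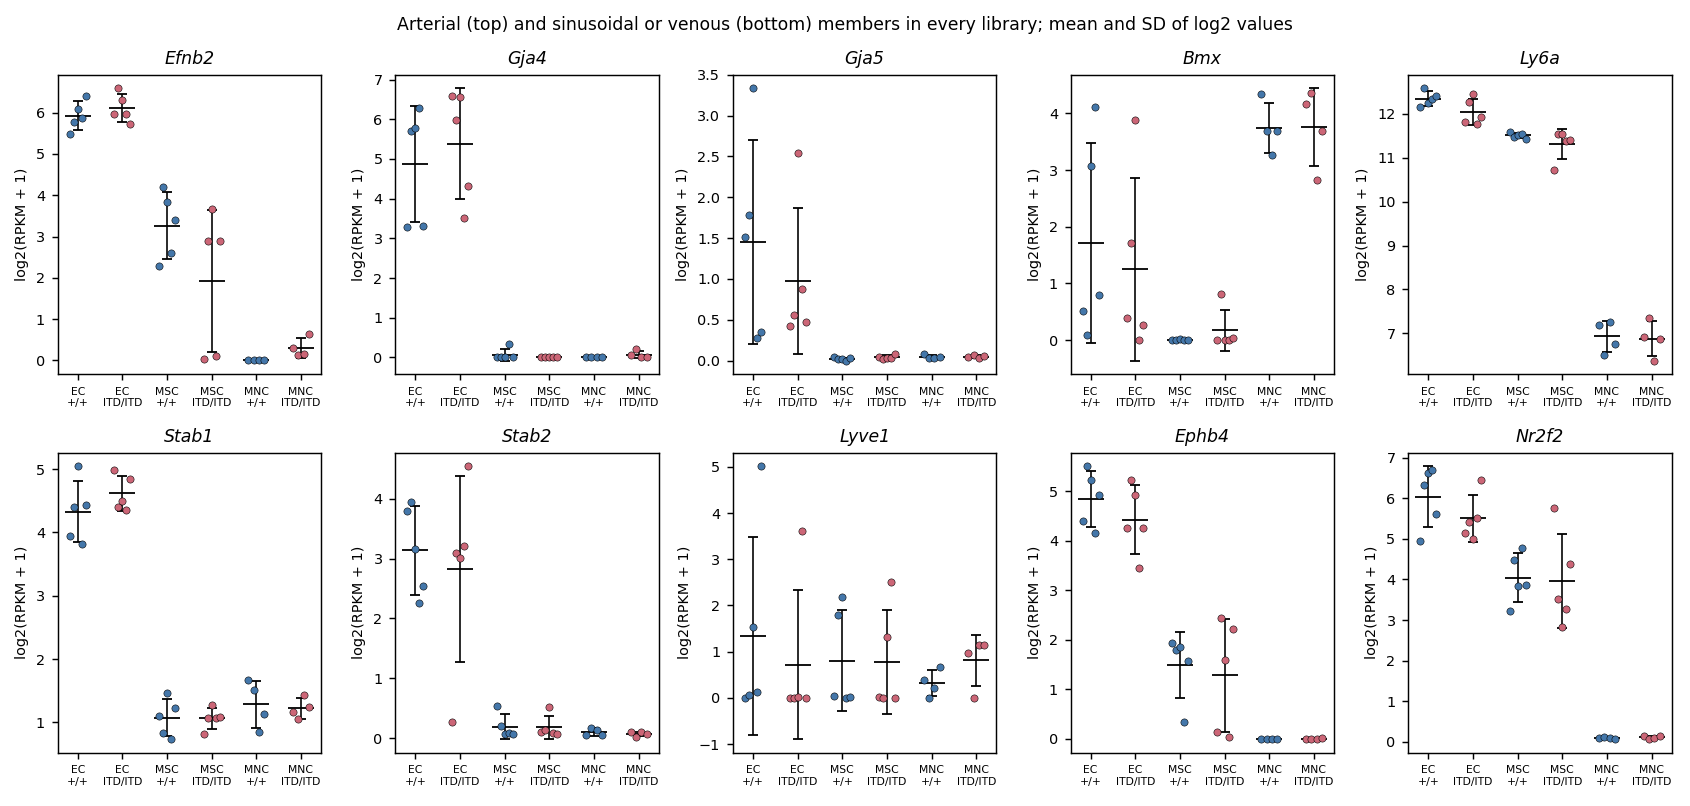
Each panel shows 1 member as log2(RPKM + 1) on the vertical axis for the 6 groups of libraries, with 1 point per library and the mean and SD of the log2 values in black. Gja4 and Efnb2 lie well above MSCs and MNCs in every EC library, Bmx is present in all MNC libraries (6.07 RPKM or more), and Lyve1 is above 3 counts in 3 of 10 EC, 4 of 10 MSC and 6 of 8 MNC libraries.

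The members also differed in how steady they were. Over the EC libraries the coefficient of variation (SD over mean of RPKM) was 18.6% for Ly6a, 24.5% for Efnb2, 28.8% for Stab1, 42.3% for Ephb4 and 48.1% for Nr2f2. It was 69.8% for Stab2, 71.8% for Gja4, 138% for Gja5, 149% for Bmx and 226% for Lyve1. The median over the 12477 genes with a mean EC level of at least 1 RPKM was 72.1%, and 97.3% of those genes varied at least as much as Ly6a, whereas 3.90% varied as much as Lyve1. Thus both classes held both steady and patchy members, and the patchy ones were at 1 RPKM or more in only 4 of 10 EC libraries for Gja5 and Bmx and in 3 of 10 for Lyve1. Lyve1, Bmx and Gja5 were also the members with the lowest mean levels (4.44, 4.15 and 2.07 RPKM), and Ly6a and Efnb2 those with the highest. The 12477 genes were not matched to the members by level, and the part of level in the spread was not tested.

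Promoters of 4 members are shown because they belong to a steady arterial gene (Efnb2), a patchy arterial gene (Bmx) and both stabilin genes, the sinusoidal pair. RefSeq on GRCm38.p6 gave a window of 250 bases before to 50 after the start for 8 of the 10 members, with Ly6a and Lyve1 unmatched. In the first 2 lines the capitals mark each CG pair, 35 in Efnb2 and 4 in Bmx, where the median promoter of the 32851 in the table has 7. The other matched members had 16 (Gja4), 14 (Ephb4), 7 (Gja5), 7 (Stab1), 4 (Stab2) and 2 (Nr2f2). These counts did not sort the steady members from the patchy ones, and a link was not tested. In the Stab lines the capitals mark searched letters: CAGGAAG, an ETS site, in Stab1 and AGGTCA, a nuclear receptor motif, at 2 places in Stab2. Each runs 5′ to 3′ on the gene's own strand, the minus strand for all 4.
Efnb2 (chr8:8661193-8661492): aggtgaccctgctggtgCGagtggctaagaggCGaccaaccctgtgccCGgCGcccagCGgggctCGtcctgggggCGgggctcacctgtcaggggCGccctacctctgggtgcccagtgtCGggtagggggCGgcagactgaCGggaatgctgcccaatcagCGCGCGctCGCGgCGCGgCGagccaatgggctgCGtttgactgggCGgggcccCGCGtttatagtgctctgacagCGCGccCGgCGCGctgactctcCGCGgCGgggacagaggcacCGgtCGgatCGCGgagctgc
Bmx (chrX:164258144-164258443): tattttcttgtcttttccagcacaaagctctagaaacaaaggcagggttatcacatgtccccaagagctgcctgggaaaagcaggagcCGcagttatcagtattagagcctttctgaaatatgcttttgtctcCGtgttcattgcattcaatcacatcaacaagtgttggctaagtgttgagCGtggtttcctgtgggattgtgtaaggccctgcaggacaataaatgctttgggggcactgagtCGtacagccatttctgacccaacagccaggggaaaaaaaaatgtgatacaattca
Stab1 (chr14:31168592-31168891): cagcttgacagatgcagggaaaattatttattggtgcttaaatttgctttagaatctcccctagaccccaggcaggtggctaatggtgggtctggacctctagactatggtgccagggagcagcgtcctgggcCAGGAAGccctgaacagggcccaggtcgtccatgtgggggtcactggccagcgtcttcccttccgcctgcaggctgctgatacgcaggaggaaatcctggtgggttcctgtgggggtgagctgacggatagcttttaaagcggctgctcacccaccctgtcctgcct
Stab2 (chr10:87007893-87008192): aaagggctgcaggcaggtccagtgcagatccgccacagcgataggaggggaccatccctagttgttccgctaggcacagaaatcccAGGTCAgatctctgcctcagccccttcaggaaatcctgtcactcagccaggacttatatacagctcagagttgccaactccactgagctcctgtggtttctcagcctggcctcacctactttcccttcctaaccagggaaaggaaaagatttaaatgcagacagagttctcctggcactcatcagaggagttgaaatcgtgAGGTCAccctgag

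Each motif was searched on both strands. The ETS letters stood 117 bases before the start of Stab1 and in 1 of the 8 member promoters, against 13.3% of all promoters. The nuclear receptor letters AGGTCA stood 164 bases before and at base 38 after the start of Stab2, in 1 of 8 members against 16.3% of all promoters. The RBPJ letters GTGGGAA (6.38% of all promoters) and the SOX letters ACAATG (12.6%) were in none of the 8. These are matches of letters within 300 bases, and no binding was measured here.

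Efnb2 (chromosome 8, 8617434 to 8661242, GRCm38) encodes ephrin-B2, the ligand that marks arterial cells. Its RPKM was 43.8, 54.0, 67.6, 57.2 and 84.1 in the Flt3+/+ ECs and 61.5, 95.6, 78.6, 61.7 and 52.0 in the Flt3 ITD/ITD ECs. It was the steadiest arterial marker after Ly6a, and the genotypes overlapped. The difference, Flt3 ITD/ITD minus Flt3+/+, was 0.20 ± 0.24 log2 units (SE; edgeR quasi-likelihood test, adjusted p = 0.9998), with a 95% interval of -0.35 to 0.76.

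Gja4 (chromosome 4, 127311421 to 127314039) and Gja5 (chromosome 3, 96904693 to 97077416) encode connexin 37 and connexin 40, the gap junction proteins of arterial endothelium. Gja4 RPKM was 8.70, 51.3, 54.0, 76.8 and 8.92 in Flt3+/+ ECs and 94.5, 61.8, 93.4, 10.3 and 19.0 in Flt3 ITD/ITD ECs. Both genotypes therefore held libraries with high and with low Gja4, and 4 libraries lay at 19.0 or below while the other 6 lay at 51.3 or above. Gja5 RPKM was 1.86, 2.45, 9.09, 0.21 and 0.27 against 0.34, 0.47, 4.81, 0.83 and 0.39, so that 1 library per genotype, replicate 3 in each, held the most. The genotype differences were 0.49 ± 0.74 log2 units for Gja4 and -0.98 ± 1.13 for Gja5, neither called (adjusted p = 0.9998 for both), and without Flt3+/+ replicate 3 the Gja5 difference was 0.18 ± 1.09. The annotation places Gpr89 on the opposite strand within the span of Gja5, and the library kit was not stated to keep strand.

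Bmx (chromosome X, 164192842 to 164258193) encodes a Tec family kinase that is a marker of large arteries and is also made by some blood cells. In ECs its RPKM was 0.43, 0.07, 7.41, 16.2 and 0.73 in Flt3+/+ and 0.31, 2.29, 13.8, 0 and 0.21 in Flt3 ITD/ITD libraries. Replicates 3 and 4 of Flt3+/+ and replicate 3 of Flt3 ITD/ITD held the most, and these were also libraries with high Gja4. The other libraries with high Gja4, Flt3+/+ replicate 2 and Flt3 ITD/ITD replicates 1 and 2, had 0.07, 0.31 and 2.29 RPKM of Bmx. The genotype difference was -0.51 ± 1.69 log2 units (adjusted p = 0.9998), and it turned to 0.60 ± 1.83 without Flt3+/+ replicate 4. Its 95% interval, -4.40 to 3.38, spans changes of many fold in either direction.

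Ly6a (chromosome 15, 74994877 to 74998031) encodes Sca1, a surface protein of stem cells that bone marrow arterial endothelium carries at a high level. Its RPKM was 4585, 6136, 4842, 5142 and 5441 in Flt3+/+ ECs and 3584, 4933, 5569, 3484 and 3872 in Flt3 ITD/ITD ECs. The ranges overlapped, although 3 Flt3 ITD/ITD libraries were below every Flt3+/+ library. The mean was 5229 ± 600.0 against 4288 ± 918 (SD, n = 5 each; exact two-sided permutation test, p = 0.103, where the smallest possible p is 0.00794), and the log2 difference was -0.27 ± 0.15 (adjusted p = 0.9998). Genes of the Ly6 family lie side by side and resemble each other, and the authors kept uniquely mapped reads alone, so the level of Ly6a is uncertain to that extent.

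Stab1 (chromosome 14, 31139013 to 31168641) and Stab2 (chromosome 10, 86841198 to 87008025) encode the stabilins, scavenger receptors of sinusoidal endothelium. Stab1 RPKM was 14.3, 20.2, 31.9, 13.1 and 20.7 in Flt3+/+ ECs and 30.7, 20.1, 21.5, 19.5 and 27.7 in Flt3 ITD/ITD ECs. The genotypes overlapped, with the lowest and the highest library both Flt3+/+, and with a log2 difference of 0.20 ± 0.31 (adjusted p = 0.9998). Stab2 RPKM was 12.9, 14.3, 7.90, 3.76 and 4.85 against 0.21, 7.50, 7.07, 8.22 and 22.2. The lowest and the highest EC library for Stab2 were both Flt3 ITD/ITD, and replicate 1 with 7 counts was the shallowest EC library and the one with the highest Gja4. The Stab2 difference was -0.04 ± 0.82 log2 units (adjusted p = 0.9998), and its sign turned without any 1 of 5 libraries, giving 0.28 ± 0.51 without replicate 1 of Flt3 ITD/ITD.

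Lyve1 (chromosome 7, 110850607 to 110863239) encodes a hyaluronan receptor of sinusoidal and lymphatic endothelium and of some macrophages. Its counts were 0, 3, 72, 3 and 2779 in Flt3+/+ ECs and 0, 0, 1, 350 and 0 in Flt3 ITD/ITD ECs, which is 31.2 RPKM in 1 library and 11.2 in another. Thus 7 of 10 EC libraries were at or under the floor, and Lyve1 alone among the 10 members was removed by the low-count filter. Of the 4 lymphatic genes, chosen here after their values were seen, Reln had 433 and 503 counts in these 2 libraries and 2 to 88 in the other 8. Pdpn had 300 and 1003 counts in them (4.99 and 47.4 RPKM) and 0 to 220 in the other 8. Among those 8, Pdpn reached 4.83 RPKM in Flt3+/+ replicate 3 and 4.26 in Flt3 ITD/ITD replicate 3. In the 2 libraries with the most Lyve1, Mmrn1 had 0 and 511 counts (0 and 9.78 RPKM). Flt3 ITD/ITD replicate 3, where Lyve1 had 1 count, had 965 counts of Mmrn1 (7.04 RPKM). Prox1, the defining lymphatic transcription factor, was at 27 and 3 counts in them and at 22 in Flt3+/+ replicate 2. The lymphatic genes summed to 7.67 and 64.9 RPKM there and to 0.08 to 11.7 in the other libraries. The 10 macrophage genes summed to 7.74 and 21.2 RPKM in them and to 2.30 to 47.7 in the other 8, and 7 of the 10 had 3 counts or fewer in every EC library. Cd68 had 229 and 182 counts in them and Mertk 70 and 185, and both were highest elsewhere (1008 and 733 in Flt3 ITD/ITD replicate 5). Pdpn, which made up 47.4 of the 64.9 RPKM of lymphatic genes in Flt3 ITD/ITD replicate 4, was higher in MSCs. Its mean was 247 ± 63.7 RPKM in MSCs and 6.39 ± 14.6 in ECs (SD, n = 10 each), and it was called lower in ECs. The lymphatic genes summed to 135 to 331 RPKM in MSC libraries. What the lymphatic and macrophage genes contribute to the Lyve1 values was not tested.

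Ephb4 (chromosome 5, 137350109 to 137378669) encodes the venous receptor for ephrin-B2, and Nr2f2 (chromosome 7, 70351944 to 70366735) encodes COUP-TFII. Ephb4 RPKM was 20.02, 44.1, 36.4, 16.8 and 29.4 in Flt3+/+ ECs and 18.2, 36.5, 29.2, 9.83 and 18.04 in Flt3 ITD/ITD ECs. The genotypes overlapped, with 1 Flt3 ITD/ITD library below every Flt3+/+ library, and the log2 difference was -0.38 ± 0.41 (adjusted p = 0.9998). Nr2f2 RPKM was 29.7, 79.0, 97.1, 102 and 48.2 against 34.1, 41.7, 30.8, 44.96 and 86.1. Here 4 of 5 Flt3+/+ libraries exceeded 4 of 5 Flt3 ITD/ITD libraries, yet the lowest value was Flt3+/+. The means were 71.3 ± 31.5 and 47.5 ± 22.3 (SD, n = 5 each; exact two-sided permutation p = 0.214) and the log2 difference was -0.57 ± 0.38 (adjusted p = 0.9998).

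**Figure D2:**
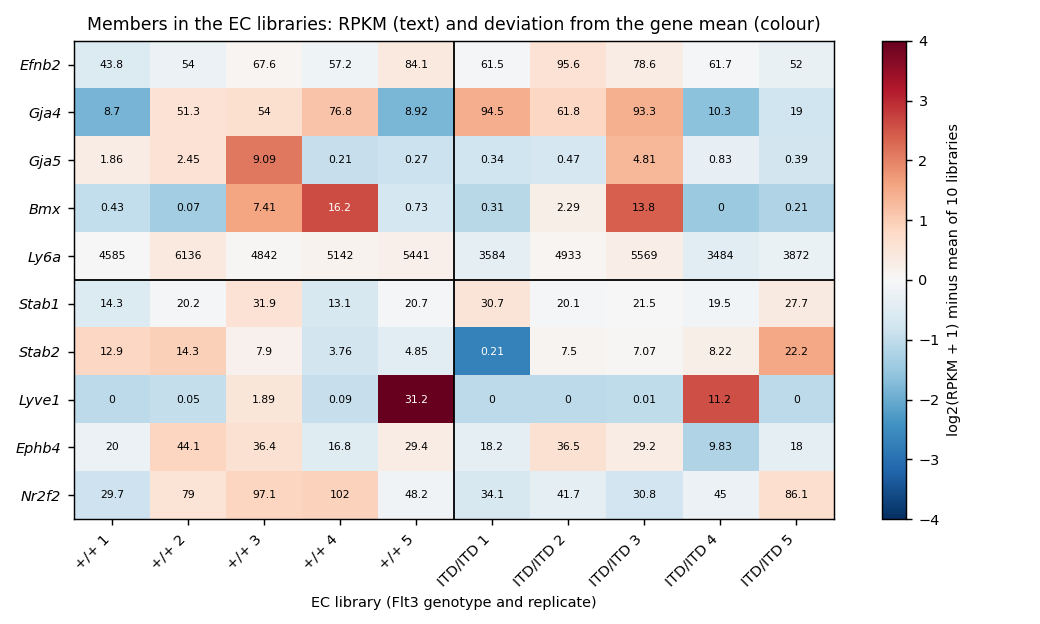
Rows are the 10 members and columns the 10 EC libraries, with RPKM printed in each cell and the color giving log2(RPKM + 1) minus the member's mean. Efnb2, Ly6a and Stab1 keep a nearly even color, while Gja4, Bmx, Stab2 and Lyve1 switch between libraries of the same genotype.

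Between genotypes in ECs, 9 members passed the filter on low counts and 0 were called, where 0.0081% of the 12351 genes tested were called. At an unadjusted p below 0.05 the count was also 0 of 9, against 4.99% of all genes, and with DESeq2, which called 362 genes, it was 0. The RPKM ranges of the genotypes were apart for 0 of 10 members and for 0.711% of genes with a count. The 95% intervals reached beyond a 2-fold change in both directions for Gja4 (-1.21 to 2.19 log2 units), Gja5 (-3.59 to 1.63), Bmx and Stab2 (-1.93 to 1.86). Those of Ephb4 (-1.34 to 0.57) and Nr2f2 (-1.44 to 0.30) did so downward. For Efnb2, Ly6a and Stab1 both bounds lay within 1 log2 unit of 0.

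**Figure D3:**
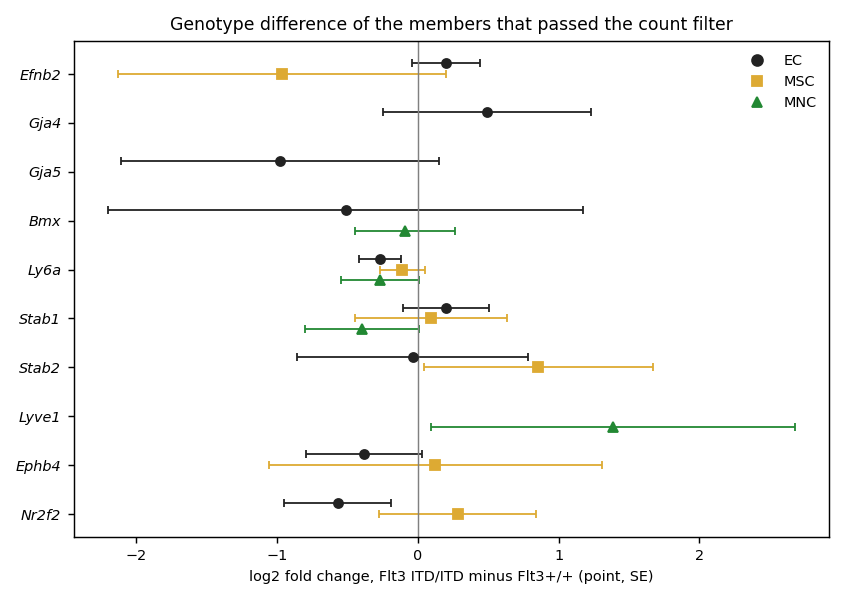
The horizontal axis is the log2 fold change of Flt3 ITD/ITD over Flt3+/+ from edgeR, with SE bars, for each member that passed the count filter in ECs (circles), MSCs (squares) or MNCs (triangles). No member was called, and the error bars are shortest for Ly6a and longest for Bmx in ECs.

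Other genes of the same vessel classes were counted from lists of arterial and sinusoidal or venous genes that hold no member. Of the 24 arterial genes, 22 passed the filter in ECs, 0 were called, 11 were higher and 11 lower in Flt3 ITD/ITD, with a median log2 difference of 0.00 against -0.01 over all genes. Those with the lowest unadjusted p were Sox18 (-0.85 ± 0.28 log2 units, adjusted p = 0.927), Tm4sf1 (0.40 ± 0.15, adjusted p = 0.927) and Sox17 (-1.29 ± 0.53, adjusted p = 0.964), where Sox17 and Sox18 encode related transcription factors of arterial development. Of the 19 sinusoidal or venous genes, 18 passed and 0 were called, with a median of 0.13. The lowest p among them was that of Aplnr, the apelin receptor of venous and sprouting cells, at -1.26 ± 0.37 log2 units (adjusted p = 0.857), followed by Plvap, which forms the diaphragms of fenestrated endothelium, at -0.75 ± 0.36 and Tfpi, an anticoagulant, at 1.09 ± 0.59 (adjusted p = 0.9998 for both).

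The highest levels in ECs on these lists were those of Tm4sf1, Mgp, Gja1, Nrp1 and Epas1 among the arterial genes (1351, 469, 281, 226 and 152 RPKM, mean of 10 libraries). On the sinusoidal or venous list they were those of the sialomucin gene Emcn (1154), Darc (342), Tfpi (158), Plvap (91.0) and Dnase1l3 (84.7). Ecscr (780 RPKM), Egfl7 (651), Esam (342), Pecam1 (279.6) and Eltd1 (256) led the 15 pan-endothelial genes, of which 0 were called, with a median log2 difference of -0.19. Tek, Cdh5 and Kdr had the lowest unadjusted p of the pan-endothelial list and were picked by it, so their p values are no independent support. Cdh5, which encodes VE-cadherin, was at 246, 252, 235, 237 and 225 RPKM in Flt3+/+ and at 165, 195, 186, 206 and 182 in Flt3 ITD/ITD ECs. Its genotypes did not overlap, as for 0.711% of genes with a count in ECs (exact two-sided permutation p = 0.00794, the smallest possible). Its log2 difference of -0.34 ± 0.11 had an adjusted p of 0.927. Tek, the receptor of angiopoietins, was -0.49 ± 0.16 and the VEGF receptor gene Kdr 0.45 ± 0.17 log2 units (adjusted p = 0.903 and 0.927). Ephb4 and Nr2f2, with differences of like size, had SEs of 0.41 and 0.38. Aplnr, likewise picked for the lowest p of its list, was also apart, at 67.6, 63.1, 43.4, 56.4 and 56.2 RPKM in Flt3+/+ and 28.6, 25.6, 36.1, 20 and 7.30 in Flt3 ITD/ITD ECs.

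In MSCs, stromal cells without CD31, 6 members passed the filter and 0 were called between genotypes (0.0295% of 13574 genes were called). Efnb2 RPKM was 3.88, 17.5, 13.3, 5.07 and 9.52 in Flt3+/+ and 0.02, 6.43, 11.8, 0.08 and 6.46 in Flt3 ITD/ITD MSCs, with 2 Flt3 ITD/ITD libraries at nearly nothing and the others inside the Flt3+/+ range. Ephb4 was also at its lowest in those 2 libraries, at 0.10 and 0.02 RPKM, against 2 to 4.43 in the other 3 and 0.26 to 2.81 in Flt3+/+ MSCs. Nr2f2 RPKM was 8.40, 21.5, 13.4, 26.3 and 13.5 against 53.0, 10.4, 6.06, 8.73 and 19.9. The highest value was Flt3 ITD/ITD replicate 1, which also held 581 counts of Alcam, the gene of the CD166 that the gate excludes, against at most 32 in any other MSC library. Without that library the Nr2f2 difference changed from 0.28 ± 0.56 to -0.51 ± 0.41 log2 units. The ranges were apart for 0 of 10 members in MSCs and for 0.652% of genes with a count.

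In MNCs 4 members passed the filter (Bmx, Ly6a, Stab1 and Lyve1) and 0 were called, where 0.0144% of 13926 genes were called. Efnb2 was the exception in how the genotypes fell, with counts of 0, 0, 0 and 1 in Flt3+/+ and 19, 8, 10 and 41 in Flt3 ITD/ITD MNCs. The genotypes did not overlap, as for 4.43% of genes with a count in MNCs (exact two-sided permutation p = 0.0286, the smallest that 4 against 4 allows). Summed over libraries this was 1 count against 78, a ratio of 75.5 per total count with an exact 95% counting interval of 13.2 to 3021. Efnb2 had been removed by the filter, and in a fit without the filter its adjusted p was 0.429 (log2 difference 5.58 ± 1.22), whereas DESeq2 gave 0.0176. The level was low, with at most 0.56 RPKM against 43.8 or more in every EC library.

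Values of other cell markers stood beside it. In MNCs the 15 pan-endothelial genes summed to 18.4 to 24.1 RPKM in Flt3+/+ libraries. In Flt3 ITD/ITD replicates 1 to 4 they summed to 29.6, 22.8, 26.0 and 50.6, where Efnb2 had 19, 8, 10 and 41 counts. The 10 mesenchymal genes summed to 3.30 to 6.97 and 4.16 to 36.0, the highest being Flt3 ITD/ITD replicate 2, which had the fewest Efnb2 counts of its genotype. Pecam1 RPKM was 6.47 to 9.76 in Flt3+/+ and 10.4 to 23.6 in Flt3 ITD/ITD MNCs without overlap, and Cdh5 was 0.17 to 1.43 and 0.17 to 1.21. Their part in the Efnb2 difference was not tested.

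Whether the genotype difference itself differed between populations was tested with an interaction in a model of all 6 groups. Against MSCs, 0 of 10 members passed an adjusted p of 0.1 (0.379% of 16897 genes did) and 2 had an unadjusted p below 0.05 (10.6% of genes did), namely Bmx and Gja4, which are at or near 0 in MSCs. Against MNCs, 0 of 10 passed (0.0118% of genes did) and 1 had an unadjusted p below 0.05 (8.23% of genes did). That was Efnb2, at -5.43 ± 1.79 log2 units (EC minus MNC, adjusted p = 0.389), and DESeq2 gave an adjusted p of 0.0348.

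The comparisons of ECs with MSCs and with MNCs use the same EC libraries. Against MSCs, 8 of 10 members were called higher in ECs, where 16.3% of all genes were. Gja4 was present in every EC library and had 0 counts in 9 of 10 MSC libraries, with 13 counts in the last, a log2 difference of 11.30 ± 1.23 (adjusted p = 9.89e-07). Stab1 (21.98 ± 6.33 against 1.12 ± 0.33 RPKM, SD, n = 10 each) and Stab2 (8.89 ± 6.21 against 0.15 ± 0.16) were 4.50 ± 0.28 and 6.01 ± 0.69 log2 units higher. Gja5 (6.33 ± 0.77), Bmx (7.04 ± 1.37) and Ephb4 (3.41 ± 0.67) were called as well. Efnb2 and Nr2f2 were higher in ECs by 3.03 ± 0.63 and 1.45 ± 0.33 log2 units, but MSCs held both, at 7.40 ± 5.66 and 18.1 ± 13.9 RPKM.

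The 2 members not called against MSCs were Ly6a and Lyve1. Ly6a RPKM was 3484 to 6136 in ECs and 1687 to 3089 in MSCs without overlap, and its log2 difference of 0.55 ± 0.14 (adjusted p = 0.0036) came with a 1.73-fold ratio of means, short of the fold needed for a call. MSCs had been sorted for Sca1, the product of Ly6a, and the part of the gate in their level was not tested. Lyve1 was above the floor in 3 of 10 EC and 4 of 10 MSC libraries, up to 31.2 and 4.66 RPKM (log2 difference 1.36 ± 1.59, adjusted p = 0.561), and the sign turned without Flt3+/+ EC replicate 5 (-0.46 ± 1.56) and without Flt3 ITD/ITD EC replicate 4 (-2.87 ± 1.63). Every EC library exceeded every MSC library for 6 of 10 members, against 3.19% of genes with a count.

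Against MNCs, 8 of 10 members were also called higher in ECs, where 23.1% of all genes were. Ephb4 had 1 count in all 8 MNC libraries together and 19011 in the 10 EC libraries, a ratio of 13992 per total count with an exact 95% counting interval of 2511 to 552664. Nr2f2 was at 0.05 to 0.11 RPKM in MNCs and 29.7 to 102 in ECs (9.46 ± 0.53 log2 units), and Efnb2, Gja4, Gja5 and Stab2 were higher by 10.87 ± 1.05, 11.51 ± 1.40, 5.64 ± 0.82 and 7.15 ± 0.81. Ly6a, at 122 ± 28.9 RPKM in MNCs, was 5.14 ± 0.19 log2 units higher in ECs, and Stab1, at 1.42 ± 0.45, was 4.22 ± 0.30 higher. For 8 of 10 members every EC library exceeded every MNC library, against 6.13% of genes with a count.

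Bmx went the other way. Its RPKM was 19.1, 11.9, 8.59 and 11.9 in Flt3+/+ and 16.9, 19.6, 6.07 and 11.8 in Flt3 ITD/ITD MNCs, a mean of 13.2 ± 4.89 (SD, n = 8) against 4.15 ± 6.17 in ECs (n = 10). Each MNC library had at least 369 counts, and 7 of the 10 EC libraries fell below all of them in RPKM. The log2 difference of -1.83 ± 1.07 was not called (adjusted p = 0.168), but it was called lower without Flt3+/+ EC replicate 4 (-2.33 ± 1.12, adjusted p = 0.0938) or Flt3 ITD/ITD EC replicate 3 (-2.89 ± 1.08, adjusted p = 0.0321). Lyve1 was not called (2.86 ± 1.83, adjusted p = 0.21), and it turned to -1.37 ± 1.52 without Flt3 ITD/ITD EC replicate 4.

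**Figure D4:**
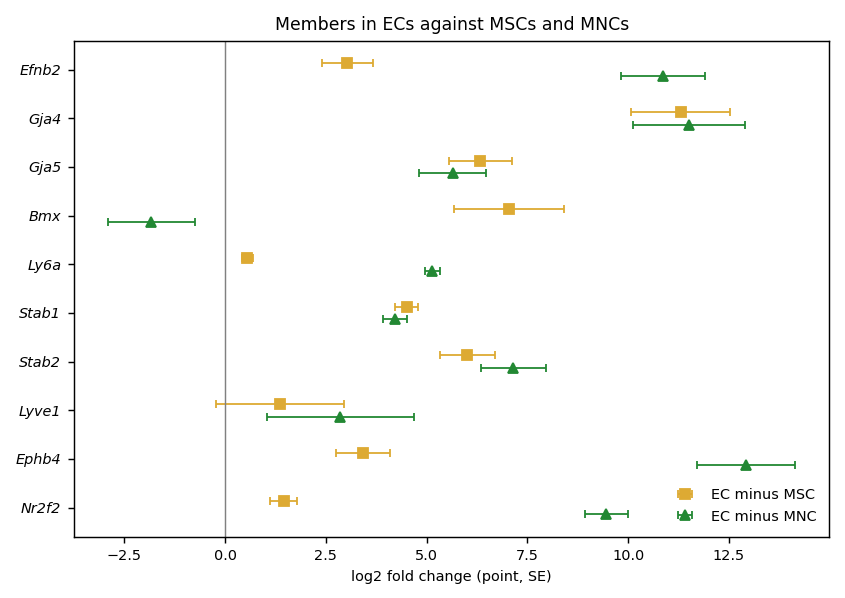
The horizontal axis is the log2 fold change of ECs over MSCs (squares) or over MNCs (triangles) from edgeR, with SE bars, for the 10 members. In both comparisons 8 of 10 were called higher in ECs, with Bmx below 0 against MNCs and Lyve1 carrying the longest bars.

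The lists without members gave a wider background. In ECs against MSCs, 19 of 24 arterial and 16 of 19 sinusoidal or venous genes were called higher, and 1 of each lower, with median log2 differences of 3.27 and 7.49 against -0.01 over all genes. Mgp, an arterial matrix protein, was the arterial exception at 469 ± 443 RPKM in ECs and 4355 ± 2443 in MSCs (-3.49 ± 0.71 log2 units, adjusted p = 0.000438), and Gja1, at 281 and 255 RPKM, was not called. Against MNCs, 23 of 24 and 18 of 19 were called higher, and 1 of each lower, with medians of 7.47 and 5.29 against 0 over all genes. All 15 pan-endothelial genes were called against MNCs and 14 against MSCs. The members, had medians of 6.33 (arterial) and 3.41 (sinusoidal or venous) against MSCs and 5.64 and 7.15 against MNCs.

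Finally, the members were compared with each other over the 10 EC libraries, which differ in depth. Of the 45 pairs, 0 passed an adjusted permutation p of 0.05 (Benjamini-Hochberg over 45, log2(RPKM + 1)). The highest r was between Ly6a and Ephb4 (Pearson r = 0.79, permutation p = 0.00733, adjusted p = 0.33, Spearman rho = 0.65, permutation p = 0.0504), and it was 0.62 without the 2 libraries farthest from the median of Ly6a. The lowest was between Gja4 and Lyve1 (r = -0.61, permutation p = 0.0454, adjusted p = 0.845, rho = -0.27, permutation p = 0.45). Within the arterial members the median r of 10 pairs was 0.30 and 9 were positive, led by Gja4 and Bmx at 0.59 (permutation p = 0.0774, adjusted p = 0.845). Within the sinusoidal or venous members it was 0.07 over 10 pairs, and between the classes 0.19 over 25 pairs. With values centred on each genotype, with log2(CPM + 1) and with each library left out, the count was also 0.

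**Figure D5:**
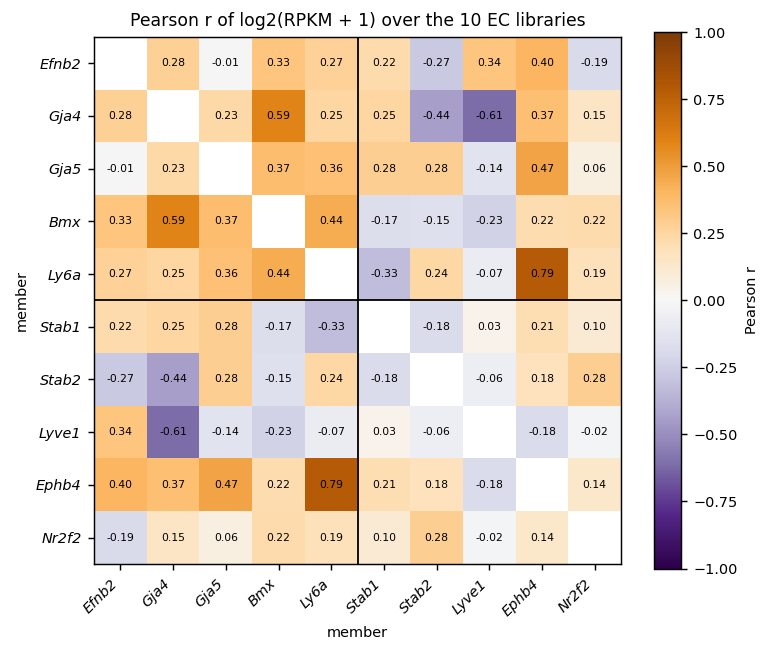
Each cell gives Pearson r of log2(RPKM + 1) over the 10 EC libraries for 1 pair of members, with arterial members first and the lines parting the classes. The highest value is 0.79 for Ly6a and Ephb4, and 0 of 45 pairs passed the adjusted permutation test.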

How the data were processed

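RNA of sorted ECs, MSCs and MNCs was amplified (SMARTer Ultra Low) and sequenced. The authors deposited estimated read counts, stored as whole numbers, and RPKM per gene, made with Bowtie and RSEM on mm10 transcripts after discarding reads that did not map uniquely, per the labels and the study's methods. Groups came from the sample labels, and 0 columns were left unmapped. The counts were tested with edgeR 4.0.16 (R 4.3.3, TMM, filterByExpr, quasi-likelihood, Benjamini-Hochberg) over all genes, within each population for genotype and in a 6-group model for populations and interactions. Calls required an adjusted p under 0.1 and mean RPKM values that differed by 1 log2 unit or more. DESeq2 1.42.0 and limma 3.58.1 on log2(RPKM + 1) or log2(RPKM + 0.1) were alternatives. Exact permutation tests of RPKM and 100000 permutations for correlations used SciPy 1.17.1. Scripts were tested on simulated data. The text names all members, the 5 highest and the 3 lowest-p genes of each endothelial list, the gate genes and Flt3; other genes were chosen after their values were seen. Members and lists were chosen with earlier results of these data known. Whether libraries of the same replicate number share a mouse or a batch is not stated. Correlations of their deviations were -0.07 to 0.07, which cannot exclude it in libraries of so few cells. The main tests treated all libraries as independent. Promoters came from RefSeq (GRCm38.p6) and positions from GENCODE vM21 (GRCm38).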

Additional observations from a re-analysis of the deposited data

Results flagged for a closer look

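In 14 of 57 groups of 4 or 5 libraries that could be examined, 1 library stood far from the others by Dixon's criterion. Values from a normal distribution meet it in about 1 of 20 groups. RPKM with zeros and a long upper tail need not follow that rate, and 1 count with the others at 0 always meets the criterion. The 14 groups therefore do not show an excess of odd libraries. Among ECs, Gja5 was highest in replicate 3 of both Flt3+/+ (9.09 RPKM) and Flt3 ITD/ITD (4.81), and the latter library also stood apart for Bmx (13.8). Lyve1 stood apart in Flt3+/+ replicate 5 (31.2) and in Flt3 ITD/ITD replicate 4 (11.2), and Nr2f2 in Flt3 ITD/ITD replicate 5 (86.1).

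Among MSCs, Ly6a was lowest in Flt3 ITD/ITD replicate 1 (1687 RPKM), the library with Alcam counts. At low levels, the library that stood apart was the highest one for Gja4 (Flt3+/+ replicate 4, 0.26 RPKM). The same held for Bmx (Flt3+/+ replicate 3, 0.01, and Flt3 ITD/ITD replicate 2, 0.76) and Stab2 (Flt3+/+ replicate 1, 0.46, and Flt3 ITD/ITD replicate 3, 0.43). Among MNCs, Efnb2 in Flt3+/+ replicate 4 and Ephb4 in Flt3 ITD/ITD replicate 4 were each at 0.01 RPKM, which was 1 count, with the others at 0.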

How the results depend on the processing

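The count of members called stayed at 0 in ECs and in MSCs under every alternative run, and at 8 against MSCs except in Flt3 ITD/ITD libraries alone, where it was 6 (Bmx 4.20, adjusted p = 0.15, and Nr2f2 1.05, adjusted p = 0.198, were lost). Counts over all genes changed with the filter, the model and the tool. For genotype in ECs they were 0 without the filter, 362 with DESeq2 and 275 in the 6-group model. In MSCs they were 2, 197 and 18, and 0 with limma, and in MNCs 322 with DESeq2 and 6 in the 6-group model. DESeq2 called 1 member in MNCs (322 of 22751 genes with a count were called) and 1 in the interaction with MNCs (517 of 25250), Efnb2 in both. Both calls use the same MNC counts of Efnb2, at most 41 in a library. Interactions gave 12 genes without the filter and 961 with DESeq2 against MSCs, and 517 with DESeq2 against MNCs, and ECs against MSCs gave 3599 genes in Flt3 ITD/ITD libraries alone. The cause was not tested.

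Whether the replicate numbers pair the libraries is not known. With the replicate block, genotype gave 0 genes in each population, the interaction with MSCs gave 1, and Bmx against MNCs -4.01 (adjusted p = 0.0478). Signs turned with the replicate block for Ephb4 (-1.14) and Nr2f2 (-0.17) in MSCs, Lyve1 against MSCs (-1.13) and MNCs (-2.31), and the interactions of Ephb4 (0.27) and Stab2 (-0.00636). With limma they turned in MSCs for Stab1 (-0.0114), Ephb4 (-0.21 and -0.82) and Nr2f2 (-0.0893 and -0.11), and in MNCs for Bmx (0.0146 and 0.00873, pseudocounts of 1 and 0.1).

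Leaving out 1 library at a time, genotype gave 0 to 0 genes for ECs, 0 to 2 for MSCs and 0 to 1 for MNCs, and populations 5339 to 5567 against MSCs, 7419 to 7644 against MNCs, and 3 to 125 and 2 to 12 for the interactions. Members called were 0 to 0 within each population and in both interactions, 8 to 8 against MSCs and 8 to 9 against MNCs, and pairs 0 to 0. Log2 differences that turned ranged in ECs from -2.34 to 0.18 for Gja5, -2.72 to 0.60 for Bmx and -0.67 to 0.28 for Stab2. In MSCs they ranged from -0.17 to 0.0145 for Ly6a, -0.12 to 0.34 for Stab1, -0.45 to 1.19 for Stab2, -0.46 to 0.44 for Ephb4 and -0.51 to 0.51 for Nr2f2, and in MNCs from -0.32 to 0.15 for Bmx. For Lyve1 they ranged from -2.87 to 2.27 against MSCs and from -1.37 to 3.28 against MNCs. Interactions with MSCs ranged from -0.16 to 0.37 for Stab1, -1.52 to 0.37 for Stab2, -10.21 to 1.96 for Lyve1 and -0.81 to 0.11 for Ephb4. Those with MNCs ranged from -2.15 to 0.34 for Gja5, -2.57 to 0.73 for Bmx, -0.19 to 0.17 for Ly6a and -11.44 to 0.74 for Lyve1.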
